A study of Rattus norvegicus with 12 samples.

Results

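Genes that remodel nucleosomes or read acetylated and methylated histones were followed in 2 brain structures of rats that took cocaine, the anterior cingulate cortex (ACC, below the cortex) and the nucleus accumbens (NAc, below the accumbens). A member is a gene whose symbol begins with Smarc or Ino80, or with Chd, Arid, Brd, Ing or Baz followed by a digit, and which owns a probe set that the array's annotation ties to a single gene. Where a gene had several such probe sets, that with the highest mean signal over the 12 arrays stood for it, and no difference between groups entered the choice. The rule took 52 of 14217 named genes, with 107 probe sets between them, and 30 of the 52 had over 1. After the dimmest 40% of all probe sets were left out, 51 members could be tested. The exception was Arid3a, a DNA-binding protein of the ARID family, whose signal lay between 1.19 and 7.91 on the 12 arrays. Names alone also brought in Brd10 and Brd3os, a transcript from the strand opposite Brd3. Chd5, Ing5 and Arid3c were not analysed here.

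The animals were male Wistar rats that earned intravenous cocaine by nosepokes, each injection giving 0.3 mg/kg in 40 µl, in sessions of 2 h on 4 days. They were killed 2 h after the last session, and tissue of 2 rats was pooled for each array. Each of the 4 groups had 3 arrays, namely cortex with vehicle, cortex with TsA, accumbens with vehicle and accumbens with TsA. TsA usually stands for trichostatin A, an inhibitor of histone deacetylases, but the labels carry only the short form, and its dose and route and the age of the animals are not given in the sources used here. All 4 groups had taken cocaine, and no rats without it were analysed here. The labels do not say whether a cortex pool and an accumbens pool of the same number came from the same rats. A p-value here measures the spread between pools.

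Chromatin remodellers are enzymes of the SNF2 type that use ATP to slide, eject or exchange nucleosomes, and they work in large complexes named after their motors, SWI/SNF (also BAF), ISWI, CHD and INO80. Bromodomains bind acetylated lysines and PHD fingers, as in the ING proteins, bind methylated lysines, so that such readers tie remodellers, acetyltransferases and deacetylases to marked histones. In the brain, SWI/SNF complexes exchange subunits as precursors become neurons, and mutations in several SWI/SNF and CHD genes cause disorders of human brain development.

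The deposited values are MAS5 signals, a linear intensity per probe set that had been scaled to the same trimmed mean of 100.03 on every array. Differences below are on the log2(signal + 16) scale with the standard error (SE) of the limma fit, and folds on that scale understate the change of dim genes. "Called" means a Benjamini-Hochberg adjusted p under 0.05 over the 18625 probe sets tested. Signals of different probe sets are not comparable as levels, because probes differ in affinity. The run records show 3 washing runs of 4 arrays. Only the second held both structures, with cortex TsA arrays 2 and 3 and accumbens vehicle arrays 1 and 2. The first held the other 4 cortex arrays and the third the other 4 accumbens arrays, so structure and washing run were largely confounded. The dissections differed as their labels say. All 7 measured markers of cortical glutamatergic neurons were lower in accumbens, with a summed signal of 202 to 622 against 2582 to 3021 in cortex. All 9 markers of striatal projection neurons were higher, with sums of 9868 to 12746 against 1029 to 1225. Of these, 2 cortical markers had a mean under 17.4 in accumbens and 1 striatal marker in cortex, the level that the dimmest 40% of probe sets did not exceed.

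Glial markers differed as well. All 11 oligodendrocyte markers were higher in accumbens, with summed signals of 12816 to 15757 against 3766 to 5054, as were all 5 markers of their precursors, 1618 to 2142 against 884 to 1057. Of 8 astrocyte markers 1 was higher and 3 lower, and of 7 interneuron markers 3 were higher and 3 lower. None of 8 microglia and 6 endothelium markers was called in limma, with 0 and 2 of them under an unadjusted p of 0.05. Of all 18625 probe sets, 9661 were under it between the structures. The single ependyma marker bright enough to test was higher. Some of these markers thus differed between the structures, and their part in the differences of the members below was not tested. In pooled tissue, fewer cells of a type and less RNA per cell cannot be told apart.

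Between the structures, 16 of 51 members were called higher in accumbens and 3 lower, where all probe sets were called at 24.4% higher and 20.4% lower. The higher ones were Ino80e, Smarcd3, Baz1a, Arid4a, Chd7, Arid4b, Ino80c, Arid1b, Arid1a, Arid3b, Chd4, Smarcal1, Ino80d, Smarcc1, Smarcd2 and Chd8, and the lower ones Ing2, Ing1 and Smarcc2. Of these, Baz1a was bright enough to test only through accumbens. Called members made up 37.3% of the 51, below the 44.8% of all probe sets. Their differences were small, from -0.41 to 0.81, with a median size over the 51 of 0.20 against 0.22 for all. Of the 51 values 38 were above 0, against 54.8% of all probe sets, and the median of the 51 was 0.17 against 0.036 for all. In 9 members every accumbens array stood above every cortex array and in 2 every one stood below, where the shares of all probe sets were 14.4% and 12.7%.

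The split depended on how arrays were scaled. With each array centred on its median, 8 members were higher and 5 lower, and the share of higher calls among all probe sets went from 54.5% to 37.5%. With quantile normalization 10 were higher and 3 lower, with that share at 47.6%. Within the washing run that held both structures (the mixed run), with 2 arrays against 2, 6 of the 51 members were called. They were Smarcd3, Chd7, Arid4a, Arid4b, Ing1 and Smarcc2, all among the 19, and 22.7% of all probe sets were called there. The 4 arrays of this run are part of the 12, so the 19 had been called partly on them. Its cortex arrays were all TsA and its accumbens arrays all vehicle, so in it treatment and structure cannot be told apart. With washing run as a block 16 of the 19 kept their sign and 5 of the 19 were called. The block also called 3 members that were not among the 19, Smarca1 at 1.36, Baz2b at 0.78 and Chd1 at 0.76. It lowered the calls among all probe sets to 22.5%, a share that stands beside these 5 and 3 of 51 members.

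**Figure D1:**
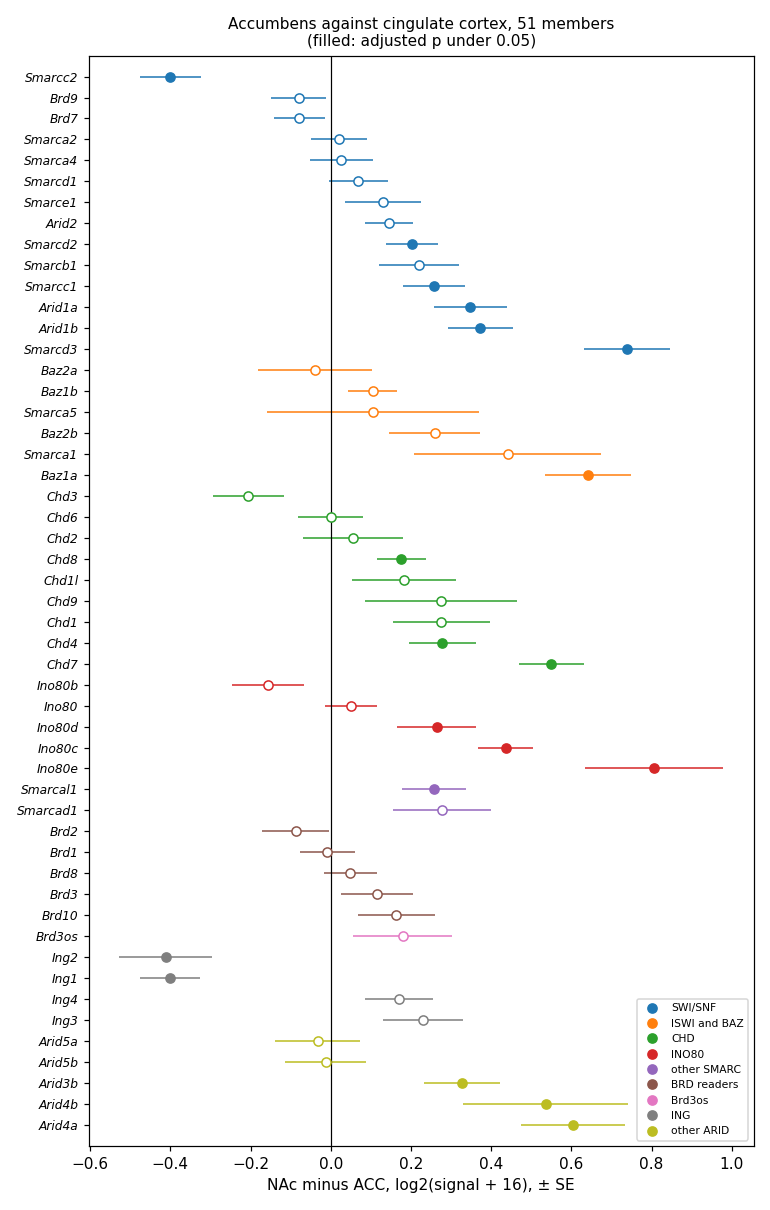
Each point is 1 of the 51 tested members, with the accumbens minus cortex difference on the log2(signal + 16) scale on the x axis and bars of ± 1 SE from the limma fit over 12 arrays. Filled points are called, colours mark the protein class, and most points lie to the right of 0, with Ing1, Ing2 and Smarcc2 as the called members on the left.

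The SWI/SNF class held 14 members, of which 5 were called higher and 1 lower, with a median difference of 0.14. Its alternative motors did not differ detectably. Smarca4 (BRG1) had a signal of 364 ± 31.9 (SD, n = 6) in cortex and 371 ± 30.5 in accumbens, a difference of 0.03 ± 0.08. Smarca2 (BRM) had 439 ± 21.4 and 447 ± 38.6, a difference of 0.02 ± 0.07. These are the ATPases that occupy the same place in the complex, and neither passed the test (adjusted p = 0.812 and 0.831 in limma). A dimmer probe set of Smarca2 was called lower, at -0.19 (adjusted p = 0.0326), and its dimmest, with a cortex mean of 15.5, read 0.30, so the probe sets of this gene disagreed. The second probe set of Smarca4 read 0.23 and was not called.

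The scaffold pair Smarcc1 (BAF155) and Smarcc2 (BAF170), which hold the complex together, went in opposite directions. Smarcc2 read 399, 435 and 464 in cortex with vehicle and 394, 410.3 and 404 in cortex with TsA. In accumbens it read 309, 283 and 379 with vehicle and 288, 298 and 324 with TsA. Every accumbens array was below every cortex array, although accumbens vehicle array 3 came close to the lowest cortex array. The difference was -0.40 ± 0.08 (adjusted p = 0.000787), -0.44 within the mixed run and -0.66 with the block, called in both. Its other probe sets read 0.04 and -0.14 and were not called, so the call rests on the brightest of 3. Smarcc1 had lowest, median and highest signals of 53.7, 64.1 and 75.2 in cortex and 73.0, 77.0 and 97.7 in accumbens. The ranges overlapped narrowly, and the difference of 0.26 ± 0.08 was called (adjusted p = 0.0155), but not with quantile normalization, centring, the block or the mixed run (0.24, adjusted p = 0.338).

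Of the interchangeable Smarcd subunits, which link SWI/SNF to transcription factors, Smarcd3 (BAF60c) differed most. It read 188, 258 and 234 in cortex with vehicle and 182, 210.0 and 189 with TsA. Its accumbens arrays read 290.0, 359 and 456 with vehicle and 325, 380.1 and 366 with TsA. No accumbens array reached down to the highest cortex array, and the difference was 0.74 ± 0.11, or 1.67-fold (adjusted p = 8.16e-05). It was 0.65 within the mixed run, where it was called, and 0.34 with the block, where it was not (adjusted p = 0.246). Smarcd2 was higher by 0.20 ± 0.06 (adjusted p = 0.0214), from 35.3 ± 2.12 to 43.1 ± 4.55, but lost its call with quantile normalization, centring, the block, the mixed run and without accumbens TsA array 2. Smarcd1 read 174 ± 16.6 and 183 ± 9.75 and was not called. Smarcd1, Smarcd2 and Smarcd3 thus had 0.07, 0.20 and 0.74 in that order, and the differences between these 3 values were not tested.

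Arid1a and Arid1b, alternative DNA-binding subunits of the BAF form, were both called higher by their brightest probe sets. Arid1a had lowest, median and highest signals of 511, 575 and 660.0 in cortex and 678, 717 and 923 in accumbens, a difference of 0.35 ± 0.09 (adjusted p = 0.00700). Arid1b had 654, 679.9 and 792 and 753, 893 and 1028, a difference of 0.37 ± 0.08 (adjusted p = 0.00210). Other probe sets did not repeat these calls. The second of Arid1a read -0.004, and those of Arid1b read 0.11 and -0.21, none called. The brightest probe set of Arid1b is of a type whose probes can match other transcripts too. With washing run as a block Arid1a was at -0.06, the opposite sign, and Arid1b at 0.35. Within the mixed run they were at 0.16 and 0.38, and neither gene was called in either setting. Arid2, found in the PBAF form, was at 0.15 ± 0.06 and was not called (adjusted p = 0.0678).

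The remaining SWI/SNF members were not called. The core subunit Smarcb1 had a difference of 0.22 ± 0.10 and the HMG-box subunit Smarce1 one of 0.13 ± 0.09. RefSeq lists 11 pseudogenes of Smarce1 in the rat, and probes may not tell them from the gene. Brd7 of PBAF and Brd9 of the non-canonical form of the complex were at -0.08 ± 0.06 and -0.08 ± 0.07.

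**Figure D2:**
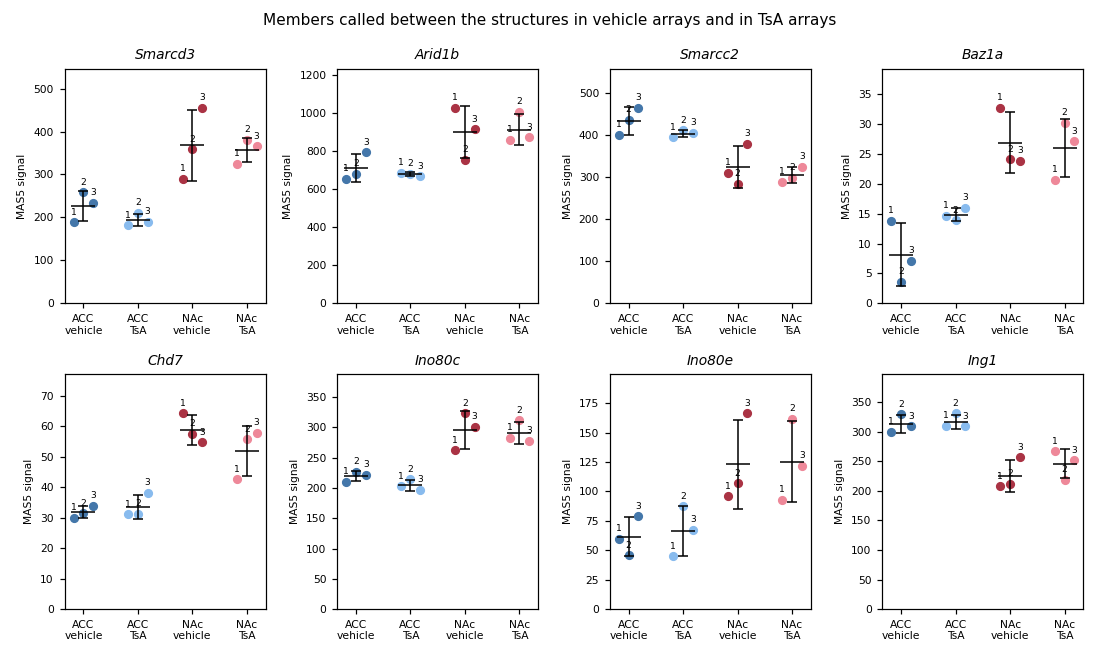
MAS5 signal on each of the 12 arrays for the 8 members called between the structures in vehicle arrays and again in TsA arrays. Points carry the array number, the long line is the group mean and bars are ± 1 SD (n = 3); Smarcc2 and Ing1 sit lower in accumbens and the other 6 sit higher.

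Among the 6 members tied to ISWI, only Baz1a was called. Baz1a (ACF1) is the partner that lets the ISWI motor space nucleosomes evenly. It read 13.8, 3.57 and 7.07 in cortex with vehicle and 14.6, 13.9 and 16.03 with TsA. The accumbens values were 32.8, 24.1 and 23.9 with vehicle and 20.7, 30.2 and 27.1 with TsA. All accumbens arrays stood above all cortex arrays, but the cortex mean of 11.5 lay below 17.4, so the gene was bright enough to test only through its accumbens arrays. Its difference of 0.64 ± 0.11 (adjusted p = 0.000279) is therefore a description, although the gene stays in the counts of called and separated members. The motors were not called, Smarca1 (SNF2L) at 0.44 ± 0.23 and Smarca5 (SNF2H) at 0.11 ± 0.26, with standard errors among the widest of the members. Baz2b was at 0.26 ± 0.11 over all 12 arrays, where it was uncalled without the block. Baz1b (WSTF) was at 0.10 ± 0.06, and Baz2a (TIP5), which silences ribosomal genes, at -0.04 ± 0.14, both uncalled. The second probe set of Baz1b read -0.09, also uncalled.

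Of the 9 CHD members, 3 were called higher and none lower. In limma 5 of the 9 reached an unadjusted p under 0.05, where 9661 of all 18625 probe sets did. Chd7, the gene mutated in CHARGE syndrome, had the smallest adjusted p of the class. It read 30.0, 31.5 and 33.8 in cortex with vehicle and 31.1, 31.3 and 38.1 with TsA. Accumbens arrays gave 64.2, 57.5 and 54.7 with vehicle and 42.5, 55.7 and 57.8 with TsA. The groups did not overlap, and the difference was 0.55 ± 0.08, 1.46-fold (adjusted p = 9.23e-05). Its other probe sets read 0.85 and 0.97, but with cortex means of 16.5 and 12.5 they passed the brightness filter only through accumbens and add no support. Within the mixed run Chd7 was at 0.60 (adjusted p = 0.0281) and with the block at 0.56 (adjusted p = 0.0517).

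The motors of the deacetylase complex NuRD, Chd3 and Chd4, differed in sign. Chd4 was called higher at 0.28 ± 0.08 (adjusted p = 0.0147), with signals of 131 to 175 in cortex and 176 to 199.9 in accumbens. Chd3 was at -0.21 ± 0.09 and was not called (adjusted p = 0.0780), with 328 to 456 and 269.7 to 365. For Chd4 the ranges were apart but close, and its second probe set read 0.05, uncalled. Chd4 also lost its call with centring, the mean over probe sets, the block (0.15) and the mixed run (0.24). Chd8, a gene mutated in some people with autism, was higher at 0.18 ± 0.06 (adjusted p = 0.0289), from 260.4 ± 14.7 to 296 ± 8.95. Chd8 lost its call under 10 of 24 alternative settings. Chd1, Chd9, Chd1l, Chd2 and Chd6 lay between -0.001 and 0.28 and were not called. A dimmer probe set read 0.74 for Chd6 and 0.28 for Chd9, and both had cortex means under 17.4 (16.6 and 14.6), so they were testable only through accumbens.

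The INO80 complex slides nucleosomes and exchanges the histone variant H2A.Z. Its motor Ino80 did not differ detectably, with 42.1 ± 1.88 in cortex and 44.2 ± 2.49 in accumbens, a difference of 0.05 ± 0.07. Of the 4 other subunits 3 were called higher. Ino80c read 211, 227 and 222 in cortex with vehicle and 203, 214 and 197 with TsA. In accumbens it read 262, 323 and 301 with vehicle and 283, 312 and 278 with TsA. The groups did not overlap, and the difference was 0.44 ± 0.07 (adjusted p = 0.000160), with 0.47 within the mixed run (adjusted p = 0.0575) and 0.14 at its second probe set.

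Ino80e had the largest value of the 51, 0.81 ± 0.17 (adjusted p = 0.00182). It read 59.7, 45.7 and 78.8 in cortex with vehicle and 44.7, 87.3 and 67.5 with TsA. Its accumbens arrays read 95.7, 107 and 166 with vehicle and 92.7, 162 and 122 with TsA. The groups were apart by little, with cortex TsA array 2 just below accumbens TsA array 1. Within the mixed run it was 0.33 (adjusted p = 0.188), with the block -0.03, and its second probe set read 0.04. Ino80d was called at 0.26 ± 0.10 (adjusted p = 0.0435) with overlapping groups, and lost its call under 14 of 24 alternatives. Ino80b was at -0.16 ± 0.09, uncalled.

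The ING proteins read methylated histone H3 through a PHD finger. Ing1 and Ing2 belong to the Sin3 deacetylase complex and were the members called lower beside Smarcc2. Ing1 read 301, 330.1 and 309 in cortex with vehicle and 309.9, 331 and 309.6 with TsA. The accumbens values were 208, 212 and 257 with vehicle and 267, 219 and 252 with TsA. Every accumbens array lay below every cortex array, a difference of -0.40 ± 0.07 (adjusted p = 0.000625). It was called under all 24 alternatives, among them the mixed run alone (-0.57) and the block (-0.61), and its second probe set read -0.45 (adjusted p = 0.000107). Ing2 had lowest, median and highest signals of 112, 143 and 164 in cortex and 75.5, 102 and 123 in accumbens, with overlap. Its difference was -0.41 ± 0.12 (adjusted p = 0.0105) and its second probe set was also called, at -0.33. Within the mixed run Ing2 was at -0.11 and with the block at 0.06, neither called. Ing3 of the TIP60 acetyltransferase complex and Ing4 of the HBO1 complex were at 0.23 ± 0.10 and 0.17 ± 0.09, uncalled.

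Promoters of 3 members called in both treatments are shown, Ing1 lower in accumbens and Smarcd3 and Arid1b higher there. RefSeq's rat build GRCr8 gave a promoter for 46 of the 52 members. Printed are the 250 bases before the gene start, 5′ to 3′ on the gene's strand, with GC boxes (GGGCGG, or CCGCCC on the other strand) in capitals. Ing1 lies on the minus strand at chr16:84646042-84646291, and Smarcd3 at chr4:11440950-11441199 and Arid1b at chr1:47973747-47973996 lie on the plus strand.
Ing1: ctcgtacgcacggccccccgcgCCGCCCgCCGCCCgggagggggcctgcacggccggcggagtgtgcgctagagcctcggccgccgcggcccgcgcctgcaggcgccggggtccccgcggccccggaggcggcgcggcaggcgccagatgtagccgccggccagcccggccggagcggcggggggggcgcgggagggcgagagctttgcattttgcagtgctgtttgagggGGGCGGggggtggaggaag
Smarcd3: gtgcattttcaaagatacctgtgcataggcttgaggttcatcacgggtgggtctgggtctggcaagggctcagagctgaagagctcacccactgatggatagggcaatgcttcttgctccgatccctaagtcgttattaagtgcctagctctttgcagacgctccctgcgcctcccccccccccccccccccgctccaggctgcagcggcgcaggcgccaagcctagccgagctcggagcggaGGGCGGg
Arid1b: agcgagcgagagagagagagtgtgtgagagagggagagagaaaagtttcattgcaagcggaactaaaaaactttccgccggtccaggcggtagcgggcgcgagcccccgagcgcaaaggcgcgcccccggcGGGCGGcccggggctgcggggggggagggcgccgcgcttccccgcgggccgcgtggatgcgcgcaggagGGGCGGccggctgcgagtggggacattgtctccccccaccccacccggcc
The promoter of Ing1 holds 3 GC boxes at 80.8% G and C, that of Smarcd3 1 at 62.4% and that of Arid1b 2 at 72.0%. The promoter of Ino80c, also higher in accumbens and not printed, holds 0 at 55.2%. Of the 46 member promoters 69.6% hold the box on either strand, against 32.4% of all 27457 promoters, and their median G and C content is 62.4% against 52.0%. TATAAA on either strand stands in 6.52% of member promoters against 13.1%, and CCAAT in 32.6% against 34.3%. CANNTG, the E-box, stands in 34.8% against 65.2%. A match describes letters and is not evidence that a factor binds.

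None of the 5 BRD readers outside SWI/SNF was called. In limma 0 of them reached an unadjusted p under 0.05, where 9661 of all 18625 probe sets did. Brd2 and Brd3, of the BET family that binds acetylated histones at transcribed genes, were at -0.09 ± 0.08 and 0.11 ± 0.09. Brd1 of an HBO1 complex, Brd8 of the TIP60 complex and Brd10 were at -0.01 ± 0.07, 0.05 ± 0.07 and 0.16 ± 0.10. Brd3os was at 0.18 ± 0.12, uncalled like Brd3 itself.

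Of the 5 ARID proteins outside SWI/SNF, 3 were called higher. Arid4a and Arid4b bind the retinoblastoma protein and the Sin3 deacetylase complex. Arid4a read 46.0, 23.2 and 29.0 in cortex with vehicle and 39.1, 29.6 and 49.8 with TsA. Accumbens arrays gave 77.5, 70.2 and 52.3 with vehicle and 64.2, 60.3 and 50.4 with TsA. The groups did not overlap, but only narrowly, and the difference was 0.60 ± 0.13 (adjusted p = 0.00191). It was called within the mixed run at 0.71 and with the block at 0.87. The second probe set of Arid4a read 0.30 and was not called. With a cortex mean of 15.5 it was testable only through accumbens. Arid4b was called at 0.54 ± 0.21 (adjusted p = 0.0494) with widely overlapping groups and lost the call under 17 of 24 alternatives. Arid3b was called at 0.33 ± 0.10 (adjusted p = 0.0128) but not with quantile normalization, centring, the block or the mixed run, and Arid5a and Arid5b were at -0.03 and -0.01, uncalled. Of the other SNF2-like enzymes, Smarcal1, which restarts stalled replication forks, was called at 0.26 ± 0.08 (adjusted p = 0.0176) and lost the call under the same 4 settings, and Smarcad1 was at 0.28 ± 0.12, uncalled.

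The structures were also compared within each treatment, which uses separate arrays but an estimate of the spread shared by all arrays. In vehicle arrays 14 members were called higher and 3 lower, with 18% and 16.5% of all probe sets. The 3 lower were Ing1, Smarcc2 and Chd3 (-0.36, adjusted p = 0.0432 in limma), while Ing2 was not called there (-0.41, adjusted p = 0.0695). Arid2 at 0.29 and Baz2b at 0.49 were called higher there, though not over all 12 arrays. In TsA arrays 6 were higher and 2 lower, with 15.9% and 12.3%. The 8 called in both were Arid1b, Baz1a, Chd7, Ing1, Ino80c, Ino80e, Smarcc2 and Smarcd3, with the same limit on Baz1a. They make up 47.1% of the 17 vehicle calls and 100% of the 8 TsA calls. The matching shares over all probe sets were not computed. The sign was the same in both treatments for 41 of 51 members, against 78.4% of all probe sets. Whether the structure difference itself differed with treatment is tested below, and no member passed.

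The counts changed when single arrays were left out. An omission leaves fewer arrays for every probe set, and the matching shares over all probe sets are not given here. The changes are therefore not read as particular to the members. Without cortex vehicle array 2, 6 members were higher in vehicle arrays, and without accumbens vehicle array 2, 8 were higher and 1 lower. In TsA arrays, 3 were higher without cortex TsA array 3 or accumbens TsA array 2, and 1 or 0 lower. Without cortex TsA array 1 or accumbens TsA array 1, 1 was lower there. With the washing-run block 1 was higher and 2 lower in either treatment.

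**Figure D3:**
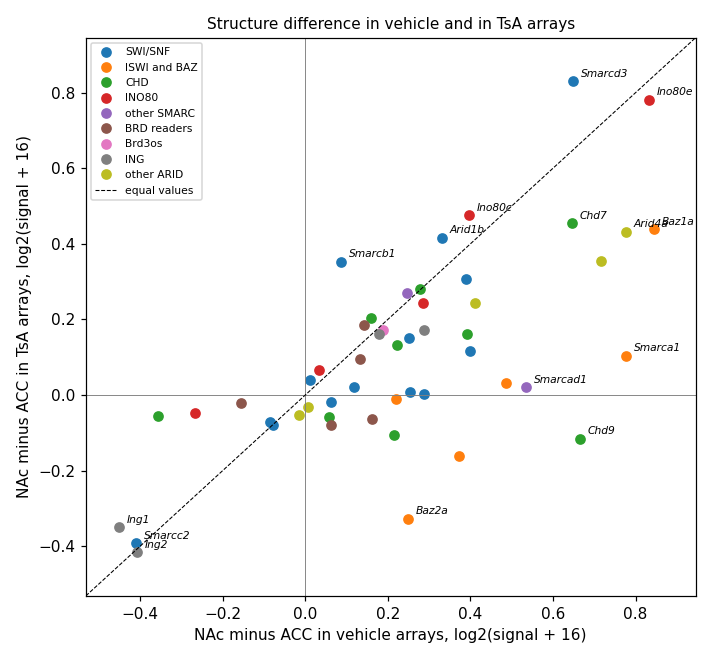
Accumbens minus cortex difference on the log2(signal + 16) scale in vehicle arrays (x axis) and in TsA arrays (y axis) for the 51 tested members, 3 arrays against 3 on each axis. The dashed line marks equal values, and 35 of the 51 points lie below it.

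For 35 of 51 members the structure difference was higher in vehicle than in TsA arrays, against 44.5% of all probe sets. The points farthest below the line of equal values were those of Chd9, Smarca1, Baz2a, Smarcad1 and Smarca5. Chd9 was at 0.66 in vehicle and -0.12 in TsA arrays. Smarca1 was at 0.78 and 0.10, and Baz2a at 0.25 and -0.33. Chd9, Smarca1 and Smarca5 varied widely between arrays of 1 group, as described below.

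TsA itself left no member called. The share of all probe sets called was 0% in cortex, 0% in accumbens, 0% for the average of both and 0% for the difference between them. In limma, 851, 408, 515 and 662 probe sets reached an unadjusted p under 0.05 in these comparisons, of which 2, 1, 2 and 1 were members. The smallest adjusted p among members was 0.751 in cortex, 1.00 in accumbens and 0.840 for the difference. In cortex the groups did not overlap for 6 of 51 members, against 12.4% of all probe sets, and in accumbens for 5, against 5.48%. In cortex all 3 vehicle arrays and TsA array 1 shared the first washing run, and in accumbens the TsA arrays shared the third with vehicle array 3.

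Smarcb1, the core SWI/SNF subunit, had the smallest unadjusted p of the members in cortex. In cortex it read 246, 259 and 228 with vehicle and 177, 158 and 173 with TsA. Each TsA array was below each vehicle array, a difference of -0.49 ± 0.14 (adjusted p = 0.751 in limma), and within the first washing run, which held a single TsA array, it was -0.43. In accumbens it read 197, 271 and 329 with vehicle and 221, 222 and 218 with TsA, a difference of -0.23 ± 0.14 with overlap. Markers of other cells stood beside this difference. With TsA in cortex 7 of 8 of microglia, 6 of 6 of endothelium, 7 of 8 of astrocytes and the 1 of ependyma were below 0. So were 4 of 5 of oligodendrocyte precursors, 6 of 11 of oligodendrocytes and 5 of 9 of striatal neurons. For interneurons and for cortical neurons it was 3 of 7 each. Of all probe sets 44.9% were above 0 there. None of these markers was called, and their part in the difference of Smarcb1 was not tested. The summed endothelium signal was 685 to 734 with TsA and 802 to 837 with vehicle, and that of microglia 842 to 1016 and 1006 to 1224. For astrocytes it was 11412 to 11785 and 11456 to 12697, and for ependyma and choroid plexus 190.0 to 205 and 231 to 252. Of the 6 markers in this last sum, 4 had a cortex mean under 17.4, and Rarres2 alone had a cortex mean of 170.

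Baz1a in cortex had a value of 0.37 ± 0.15 (adjusted p = 0.751 in limma), but all 6 cortex signals, 3.57 to 16.03, lay under 17.4, so no difference is read from it. Baz2a in accumbens read 42.8, 48.9 and 40.1 with vehicle and 17.6, 26.3 and 34.7 with TsA. It differed by -0.52 ± 0.20 (adjusted p = 1.00 in limma) with no overlap, and by -0.43 within the third washing run, which held a single vehicle array.

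By class, the 6 ISWI motors and BAZ partners were all above 0 with TsA in cortex, with a median of 0.28, and all below 0 in accumbens, with a median of -0.22. None of the 6 was called in either. They include Baz1a, from whose cortex signals under 17.4 no difference is read, and Smarca1 and Smarca5, which varied widely within groups. The 5 ARID proteins outside SWI/SNF were likewise all above 0 in cortex, with a median of 0.20, and 3 of them were below 0 in accumbens. Over the 51 members the medians were 0.036 in cortex and -0.047 in accumbens, against -0.021 and 0.012 for all probe sets. In accumbens 37 of 51 were below 0, where 54.1% of all probe sets were above 0. A value above 0 in cortex and below 0 in accumbens was seen for 23 of 51 members and for 24.2% of all probe sets. Smarca1 was at 0.33 ± 0.33 in cortex and -0.35 ± 0.33 in accumbens, Smarca5 at 0.31 ± 0.37 and -0.23 ± 0.37. These standard errors exceed or approach the values themselves. Arid2 had the largest ratio of value to SE for the difference between the structures, -0.28 ± 0.12 (adjusted p = 0.840 in limma).

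**Figure D4:**
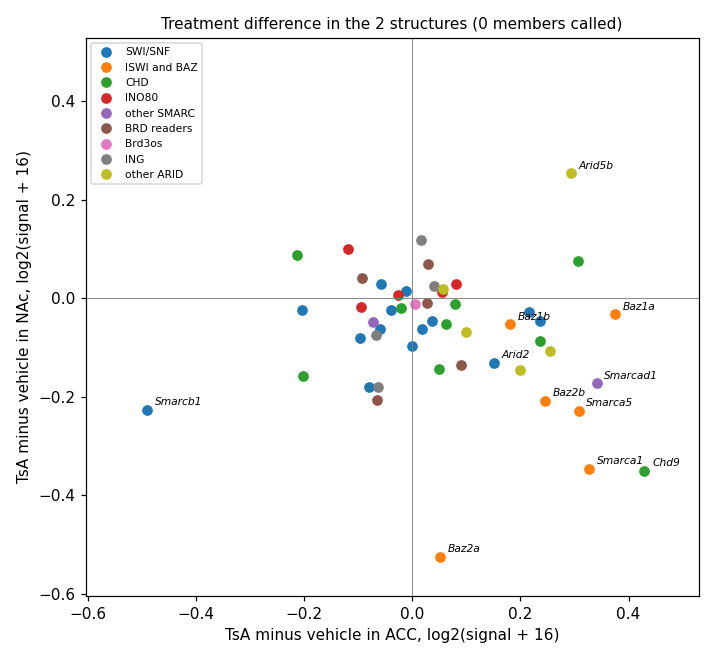
TsA minus vehicle difference on the log2(signal + 16) scale in cortex (x axis) and accumbens (y axis) for the 51 tested members, 3 arrays against 3 on each axis, coloured by protein class. No point is called on either axis, and the 6 ISWI and BAZ points lie to the right of 0 and below 0.

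A few members varied far more between arrays of the same group than others. The residual SD on the log2 scale was 0.57 for Smarca5, above 99.3% of all probe sets, 0.50 for Smarca1, 0.44 for Arid4b and 0.40 for Chd9, where the median was 0.160 for members and 0.158 for all. Smarca5 read 163, 58.7 and 118 in cortex with vehicle and 153, 95.5 and 165 with TsA. Its accumbens arrays read 258, 151 and 69.7 with vehicle and 99.2, 127 and 132 with TsA. Accumbens vehicle array 1 was the highest of all 12 and array 3 of the same group the next to lowest, with cortex vehicle array 2 at the bottom.

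Smarca1 had the same array on top, with 184, 87.2 and 53.7 in accumbens with vehicle and 74.0, 31.7 and 50.6 in cortex with vehicle. Chd9 read 212, 132 and 106 and 134, 59.3 and 75.8 in these groups, and Arid4b 173, 109.8 and 62.2 and 89.0, 33.7 and 64.1. All 4 genes were thus highest on vehicle array 1 and lowest on array 3 in accumbens, and highest on array 1 and lowest on array 2 in cortex. The SD of deviations from the group mean over all probe sets was 0.237 on accumbens vehicle array 1 and 0.246 on array 3, and on the other arrays 0.116 to 0.206. The 3′ to 5′ signal ratio of actin was 2.38 and 1.96 on these 2 arrays, and 1.96 also on array 2, whose SD was 0.145. That of GAPDH was 1.18 and 1.24, within the 1.12 to 1.25 of all 12 arrays. The part of RNA quality in the spread was not tested.

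**Figure D5:**
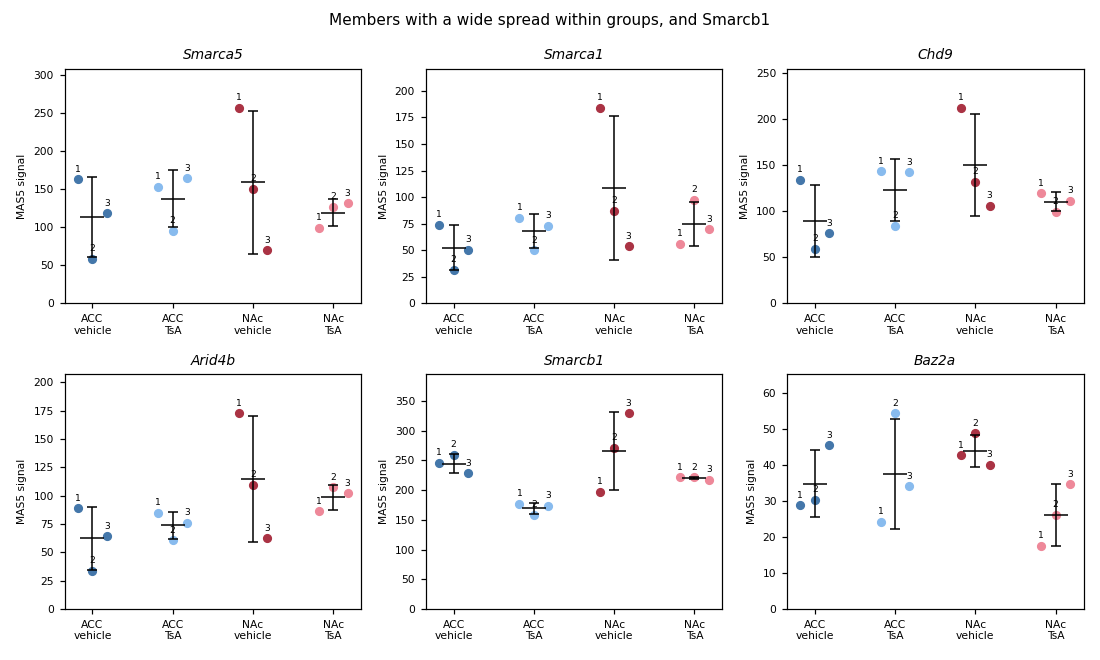
MAS5 signal on each of the 12 arrays for Smarca5, Smarca1, Chd9 and Arid4b, which spread widely within groups, and for Smarcb1 and Baz2a. Points carry the array number, the long line is the group mean and bars are ± 1 SD (n = 3); accumbens vehicle array 1 stands highest for the first 4 genes, and the cortex TsA arrays of Smarcb1 lie below the cortex vehicle arrays.

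The proteins that share complexes with the members were read from 8 lists of partners, 106 genes bright enough to test of 122 listed. Between the structures 34 were called higher and 14 lower, 45.3% together, close to the 44.8% of all probe sets. By direction, 24.4% of all probe sets were called higher and 20.4% lower, the shares that stand beside the counts per list below. Of the 34, Brwd3 was bright enough to test only through accumbens. With arrays centred on their median 18 were higher and 20 lower, so the split depended on scaling. Called partners numbered 17 with the washing-run block and 15 within the mixed run, where 22.5% and 22.7% of all probe sets were called. Values of single partners under these 2 settings are not given here. None was called with TsA in either structure, and 2 and 4 reached an unadjusted p under 0.05 in limma.

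Among 13 SWI/SNF partners 7 were higher and 1 lower. Bcl11b and Bcl11a, zinc finger proteins found with SWI/SNF, differed in opposite directions. Bcl11b, a marker of striatal and deep cortical neurons, had signals of 423 ± 40.5 in cortex and 1256 ± 109 in accumbens, a difference of 1.54 ± 0.08 (adjusted p = 5.60e-09). Bcl11a was at -0.72 ± 0.09 (adjusted p = 1.89e-05). Actl6a, the actin-like subunit of progenitor complexes, was at 0.51 and its neuronal alternative Actl6b at 0.28, both called. The neuronal subunit Dpf1 was at 0.48, called.

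Of 11 NuRD partners 2 were higher and 4 lower. Mbd2, which binds methylated DNA, was at 0.65, and the lowest were Mta3 at -0.85 and Cdk2ap1 at -0.69. Of 24 partners in INO80, SRCAP and TIP60 complexes 7 were higher and 3 lower. Mbtd1 was at 0.78 and Nfrkb, an INO80 subunit, at 0.48, and the acetyltransferase Kat5 at -0.31. Of 14 ING partners 6 were higher and 1 lower, among them Jade1 at 0.70 and the Sin3 scaffold Sin3b at 0.44, with the Sin3 subunit Suds3 at -0.30.

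Of 14 BET partners and elongation factors 6 were higher and 3 lower, with Ccnt2, a cyclin of the elongation kinase, at 0.80 and the kinase Cdk9 at -0.27. Of 20 other bromodomain genes 5 were higher and 1 lower, with the acetyltransferase Kat2b at 1.01 and the reader Zmynd8 at -0.22. Of the 5, Brwd3 had mean signals of 12.8 in cortex and 22.0 in accumbens, so it was bright enough to test only through accumbens. Of 6 ISWI partners Bptf at 0.22 and Chrac1 at 0.27 were higher and none was lower. Of 9 other SNF2-like remodellers none was higher, and Zranb3 was lower at -0.23.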

How the data were processed

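Affymetrix rat genome arrays were read with GCOS 1.4 and summarised by MAS5 to linear intensity values, per the submitters' processing notes, and these deposited signals were used without further normalization. Of 31042 probe sets without controls, 20826 had 1 gene symbol in the platform annotation, 436 several and 9780 none. Washing runs were taken from the deposited run records. With limma 3.58.1 in R 4.3.3, group means of the 4 groups were estimated from log2(signal + 16) of the 18625 probe sets left after the lowest 40% by mean signal (17.4 or less) were dropped (lmFit, contrasts.fit, eBayes with trend, two-sided, Benjamini-Hochberg). The fitting code was tested on simulated data. Members, classes, partner lists and marker lists were chosen with earlier results of these data known. Any member could be named between the structures. With TsA, called members were named, and otherwise those with groups apart, a log2 difference of at least 0.3 and the smallest p, up to 8 a structure. Partners named were called ones, from the 4 largest differences per list and direction. Actl6b was named outside that rule, beside its alternative Actl6a. Brd10 and Brd3os were given classes, and values singled out for their spread, after the data were seen. The number of arrays limits the precision. Alternatives varied the pseudocount (1, 32), filter (none, 60%), normalization, variance prior, probe set, washing run, replicate block and each array.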

Additional observations from a re-analysis of the deposited data

How the results depend on the processing

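Of the 24 alternatives, 12 left out an array each. Members higher in accumbens numbered 9 with the lowest 60% of probe sets left out, 10 with quantile normalization, 8 with centring (5 lower), 6 with the washing run as a block and 4 within the mixed run, and 13 to 20 leaving out an array (3 to 4 lower). In vehicle arrays 7 were higher with the stricter filter, 5 with centring (5 lower), 1 with the washing-run block, and 6 to 15 leaving out an array (1 to 3 lower). In TsA arrays 1 was higher with that block, 3 with the mean over probe sets, and 3 to 8 leaving out an array (0 to 3 lower). Called partners numbered 17 with the block, 15 within the mixed run and 36 to 51 leaving out an array. Members called with TsA stayed at 0 in each of the 4 comparisons under every alternative that could be run. Fewer genes, or fewer arrays, were tested under the stricter filter, the mixed run and the omissions; for the rest the cause was not tested.

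Where the main or the alternative value was called, signs turned with the washing-run block for Arid1a (-0.0647), Ing2 (0.0594) and Ino80e (-0.0276). With the second brightest probe set they turned for Arid1a (-0.00402), Chd6 (0.737), Smarca2 (-0.188) and Smarcc2 (0.0374), where a different probe set is read. Chd6 was at 0.270 with the mean over probe sets. Of 1276 values of single members under alternatives, 81 lost a call, 21 gained one and 55 uncalled values changed sign. The 19 calls between the structures all held with pseudocount 32 and with replicate number as a block, which gave 18 higher and 3 lower, 13 and 3 in vehicle arrays and 6 and 2 in TsA arrays. That block changed no other call with TsA. The numbers were not taken as a pairing, since 6 of 18 same-number pairs of arrays had deviations correlated over 0.1 (from -0.32 to 0.66). Of the 19 called members, 6 were too dim to be tested under the stricter filter.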
